A study of Rattus norvegicus with 32 samples.

Results

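Respiratory complexes II to V and cytochrome c were examined through genes listed by symbol, chosen with earlier results of these data known. The set had 40 nuclear genes, which encode subunits or, for Cox7a2l, a factor that links complexes III and IV. Of these, 39 were among the 17216 gene rows of the deposited count files, and the counts of Cox6b1 were not analysed here. They comprised 4 of 4 genes of complex II, 9 of 9 of complex III, the gene of cytochrome c, 10 of 11 of complex IV and 15 of 15 of ATP synthase. RNA had been taken from 16 single neurons, labelled pyramidal, in hippocampal cultures of wildtype Sprague Dawley rats that were prepared at embryonic day 18 and kept for 15 days. Each neuron gave 1 soma library and 1 dendrites library, aspirated with separate micropipettes, so that the study had 16 libraries of each kind and no treatment. Per the series text, more than 1 culture and day contributed cells, but no label ties a neuron to its culture, so p-values measure the spread between these neurons. All RNA went through 3 rounds of antisense RNA amplification.

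Mitochondria make most of a neuron's ATP by oxidative phosphorylation. Complex II takes electrons from succinate, complex III passes them to cytochrome c, and complex IV hands them to oxygen. Complexes III and IV pump protons across the inner membrane as they do so, and ATP synthase, also called complex V, lets the protons flow back and makes ATP. Nearly all subunits of these complexes are encoded in the nucleus and imported, while a small core is encoded in mitochondrial DNA and was not analysed here. Dendrites hold mitochondria far from the nucleus, and the comparison of the compartments asks whether the mRNAs of these subunits take a different share of the RNA there.

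Many genes of the respiratory chain are known to be driven by the transcription factors NRF1 and GABP, the latter also called NRF2. Promoter windows from RefSeq on rat build GRCr8 were matched for 34 of the 40 genes, Cox6b1 among them, and the 250 bases before the transcription start were searched on both strands. The GABP motif, searched as CCGGAAG, lay in 12 of 34 windows (35.3%), against 7.74% of all 27457 windows of this length and 9.52% of the 19005 windows of protein-coding genes. The NRF1 motif, searched as GCGCAN directly followed by GCGC, lay in 5 of 34 (14.7%), against 4.17% of all windows and 5.45% of coding ones. The Sp1 motif, searched as GGGCGG, lay in 11 of 34 (32.4%), against 32.4% and 40.3%. The CREB motif, searched as TGACGTCA, lay in 1 of 34, that of Cox8a (2.94%, against 1.70% of all windows), and the ERR motif, searched as TCAAGGTCA, in 1 of 34, that of Atp5g3 (2.94%, against 0.368%). The YY1 motif, searched as AANATG directly followed by GCGGC, lay in 0 of 34 and in 0.433% of all windows. These shares describe the windows and were given no test. For each complex, the 130 bases before the start are shown for the gene with the most matches to NRF1 and GABP, with every motif match in capitals, which did not overlap.
Sdha, complex II, chr1:30764423-30764552, plus strand: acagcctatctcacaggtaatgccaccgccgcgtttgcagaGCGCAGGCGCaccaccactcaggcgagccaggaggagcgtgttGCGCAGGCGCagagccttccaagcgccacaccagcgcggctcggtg
Uqcrc2, complex III, chr1:184599110-184599239, plus strand: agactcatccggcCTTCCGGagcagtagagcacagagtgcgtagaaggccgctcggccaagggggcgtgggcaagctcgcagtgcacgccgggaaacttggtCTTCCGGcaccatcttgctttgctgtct
Cox8a, complex IV, chr1:213833624-213833753, minus strand: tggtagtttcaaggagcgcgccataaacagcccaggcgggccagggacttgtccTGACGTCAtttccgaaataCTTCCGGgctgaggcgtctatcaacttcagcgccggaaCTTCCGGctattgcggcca
Atp5i, ATP synthase, listed in RefSeq as Atp5me, chr14:1464730-1464859, plus strand: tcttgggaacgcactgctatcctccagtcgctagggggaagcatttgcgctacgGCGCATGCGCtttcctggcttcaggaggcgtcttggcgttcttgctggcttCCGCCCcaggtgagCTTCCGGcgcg
The window of Sdha held NRF1 matches that began 89 and 46 bases before the start, and that of Uqcrc2 held GABP matches at 117 and 28 bases. The window of Cox8a held the CREB match at 76 bases and GABP matches at 57 and 19 bases. Atp5i had 1 match each to NRF1 at 76 bases, to Sp1 at 25 bases and to GABP at 11 bases.

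Soma libraries held between 878125 and 24721811 gene counts and dendrite libraries between 229149 and 24439768. The neuronal markers Tubb3, Stmn2 and Snap25 and the pyramidal marker Neurod6 each reached 10 counts in all 32 libraries. Of the other neuronal markers, Rbfox3 reached them in 15 soma and 14 dendrite libraries. Map2 did so in 11 and 12, and Syp in 2 and 1. The pyramidal markers Slc17a7 and Camk2a reached 10 counts in 5 somata each and in 2 and 4 dendrite libraries. The inhibitory marker Gad1 reached them in 7 somata and 11 dendrite libraries. The summed level of 10 astrocyte markers had a median of 138 CPM in soma (counts scaled to a library total of 1000000 gene counts), from 0.486 to 513, and of 261 CPM in dendrites, from 22.6 to 2198, and it was higher in the dendrites of 11 of 16 neurons. For 6 markers of endothelial, mural and fibroblast cells, the summed median was 8.22 CPM in soma, from 0 to 599.97, and 56.6 CPM in dendrites, from 0.0942 to 795, and it was higher in the dendrites of 13 of 16 neurons. Of these, Sparc reached 10 counts in 10 soma and 12 dendrite libraries and Dcn in 9 and 8, while the endothelial marker Cldn5 was at 0 in all 32. The defining astrocyte marker Gfap reached 10 counts in 2 soma and 5 dendrite libraries, and Aqp4 in 3 and 7. Not all 10 astrocyte markers leaned this way. Glul passed that limit in 14 somata but 11 dendrites, and its median was 40.2 CPM in soma against 16.1 CPM in dendrites. Aldh1l1 passed it in 1 soma and 0 dendrites. The rest of the astrocyte list, with Mt3 at 14 somata and 16 dendrites, passed it more often in dendrites. The part of these transcripts in the values below was not tested. A level in CPM is a share of a library, so the absolute amount of an mRNA in a compartment was not measured, and no transcript lengths were used here. Levels were therefore compared between libraries, and genes were set against each other only as shares of counts with no correction for length.

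Together the 39 genes held 2.12% ± 0.620 of the gene counts in soma (SD, n = 16 libraries) and 2.43% ± 0.928 in dendrites. The soma shares ran from 1.26% in neuron 20 over a median of 1.95% to 3.49% in neuron 11, and the dendrite shares from 1.33% in neuron 27 over 2.15% to 4.07% in neuron 15. The dendrites of neurons 7, 8, 14 and 15 lay above every soma, the soma of neuron 20 lay below all dendrites, and the ranges otherwise overlapped. Dendrites had the higher share in 8 of 16 neurons, and the log2 ratio of dendrites over soma averaged 0.17 ± 0.65 (SD, n = 16), and 0.11 without neuron 14 or without neuron 15. By complex, the mean log2 ratio was -0.75 ± 1.61 for complex II, -0.07 ± 0.70 for complex III, 0.39 ± 0.90 for complex IV and 0.13 ± 0.70 for ATP synthase (SD, n = 16). Each mean was smaller than its SD, which describes the spread of single neurons and is no test of the mean against 0. Of the 6 differences between complexes within neurons, the largest on average was complex IV minus complex II, at 1.14 ± 1.78 (SD) and above 0 in 13 of 16 neurons. Without Sdhd, complex II had a ratio of 0.42, against 0.39 for complex IV. The other 5 differences averaged -0.26 to 0.89 and were above 0 in 5 to 11 of 16 neurons. These sums over chosen genes were described and given no test. The mean of complex III was 0.01 without neuron 9. That of ATP synthase was 0.03 without neuron 20, 0.07 without neuron 7 and 0.22 without neuron 9.

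**Figure D1:**
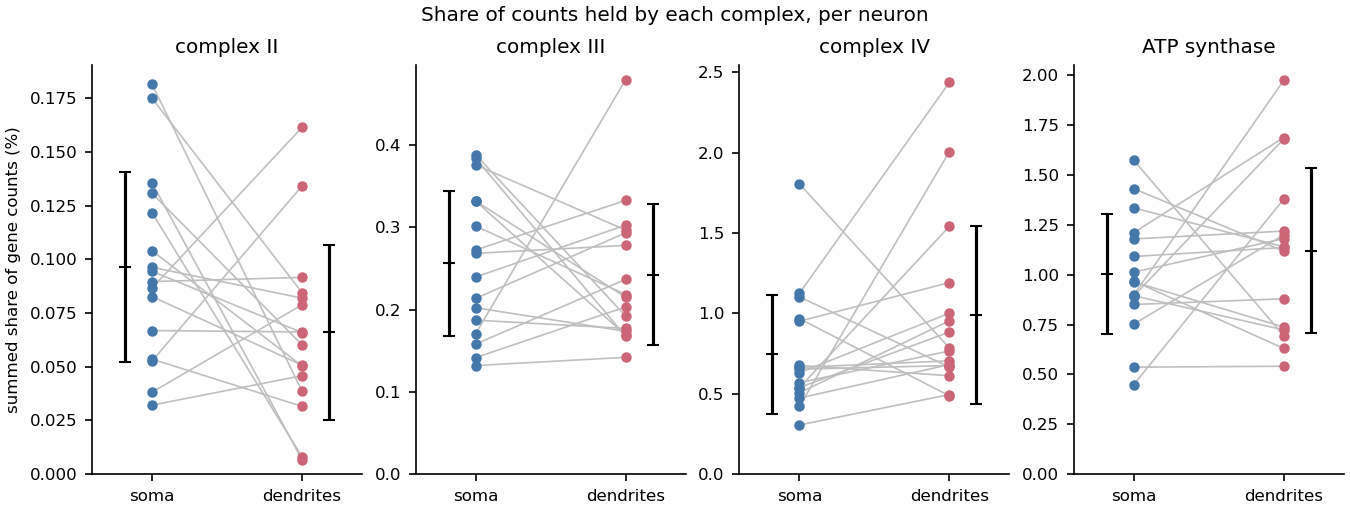
Summed share of gene counts (%) held by the genes of complex II, complex III, complex IV and ATP synthase in the soma and dendrites of 16 neurons; grey lines join libraries of 1 neuron, and bars beside the points give the mean and SD. The compartments overlap in every panel, and 11 of 16 lines fall for complex II while 12 of 16 climb for complex IV.

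In the test of each neuron's dendrites against its own soma, 38 of the 39 genes passed the filter on low counts, and 0 of 38 passed an adjusted p of 0.05 in edgeR's quasi-likelihood test, as did 0% of all 4916 genes tested. At an unadjusted p under 0.05 there was 1 member of 38, Atp5i, which was higher in dendrites, against 2.62% of all genes in either direction and 1.75% in that direction. With DESeq2's Wald test, which called 8.2% of all genes at an adjusted p under 0.05, 0 of 38 passed, with a lowest adjusted p of 0.0571, and 4 of 38 (Atp5i, Cox4i1, Uqcrfs1 and Atp5e) had an unadjusted p under 0.05, against 20.6% of all genes. Limma-voom and an exact sign-flip permutation test per gene also called 0 members and 0% of all genes. At an unadjusted p under 0.05 limma-voom had 2 members (Cox7c and Sdhd), against 4.6% of all genes. The sign-flip test had 5 (Atp5i, Atp5l, Uqcrfs1, Atp5e and Cox4i1), against 5.37%. A log2 fold change above 0, that is toward dendrites, was fitted for 25 of 38 members (65.8%), against 54.8% of all genes tested. The median over members was 0.26, from -1.47 for Uqcrfs1 to 1.35 for Cox4i1, against 0.13 over all genes. The members' median was 0.16 without neuron 23, where that of all genes was also 0.16, and 0.16 without neuron 27, against 0.05. That of all genes was the higher without neuron 14 (0.26 against 0.22 for members) and without neuron 22 (0.22 against 0.21). With no filter it was also the higher, at 0.32 against 0.17. In the other alternative fits the members' median was the higher. By complex the median was 0.39 over 4 genes for complex II, 0.17 over 9 for complex III, 0.54 over 10 for complex IV and 0.0049 over 14 for ATP synthase. With each neuron left out in turn, the complex II median ran from 0.06 without neuron 26 to 0.50 without neuron 9, and it was 0.18 without neuron 13. The complex III median ran from -0.02 without neuron 28 to 0.37 without neuron 25, and it was 0.05 without neuron 15. Higher CPM in dendrites in 12 or more of 16 neurons was seen for 3 members (Cox4i1, Atp5e and Atp5i), where 3.46% of all genes had it, and in 4 or fewer for 1 member (Uqcrfs1), where 5.49% of all genes had it. Changes were also built into simulated counts modelled on the library sizes and spread of these samples. Of these changes, edgeR found 5% of the 4-fold and 32.4% of the 16-fold ones (3859 genes). The measured libraries gave 4916 genes tested, so the simulation matched them only in part. Whether its rates hold for the measured libraries was not tested. The changed genes were drawn at random from all genes tested, which varied more between neurons than the members did. The rates for the members were therefore not measured.

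**Figure D2:**
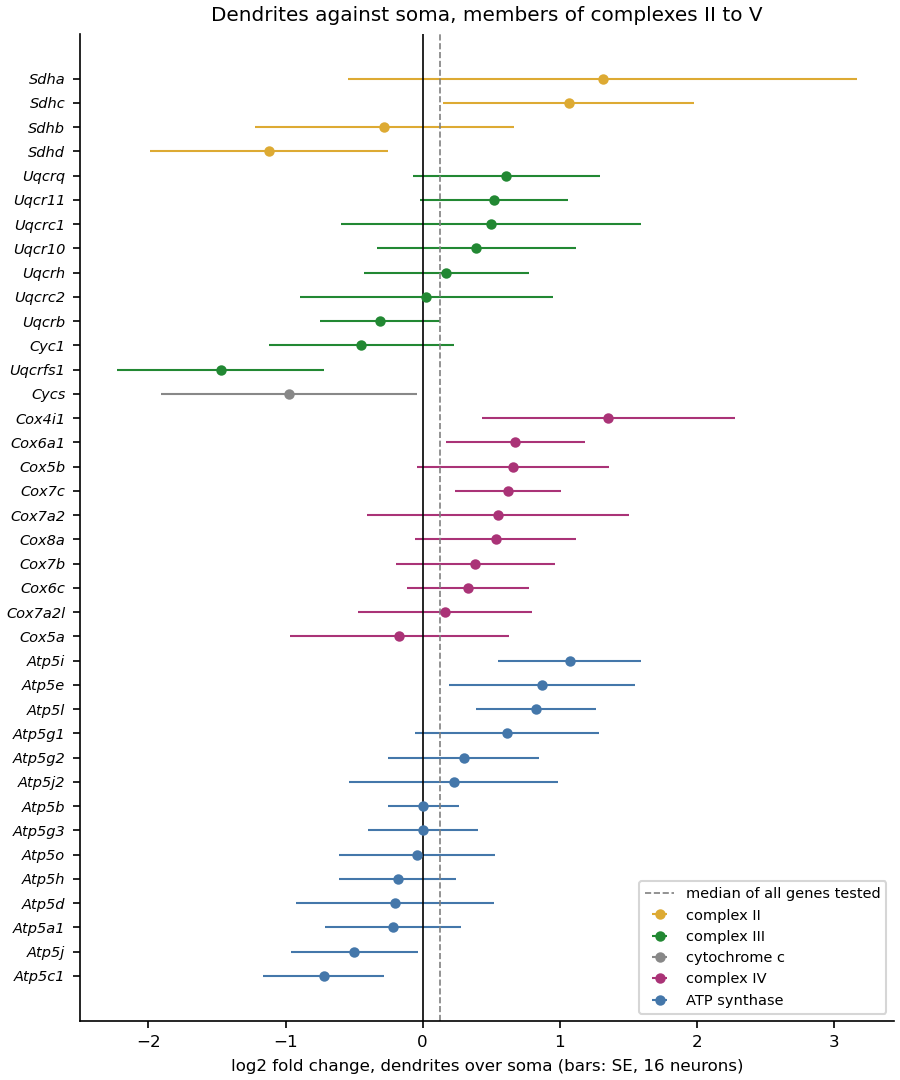
Log2 fold change of dendrites over soma with its SE (16 neurons) for 38 genes, coloured by complex; the solid line marks 0 and the dashed line the median of all genes tested, 0.13. The values of complex IV lie above 0 for 9 of 10 genes, those of the other groups lie on both sides of 0 or, for Cycs, below it.

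Complex II consists of the flavoprotein Sdha, the iron-sulfur protein Sdhb and the membrane anchors Sdhc and Sdhd. The share of its 4 genes ran from 0.0321% over a median of 0.092% to 0.182% in soma, and from 0.00678% over 0.063% to 0.161% in dendrites. It was lower in the dendrites of 11 of 16 neurons, most of all in neuron 20, with 0.136% in soma and 0.00678% in dendrites, and in neuron 27, with 0.122% and 0.00809%. Of its genes, Sdhd had 3.04 CPM in its lowest soma, a median of 369 and 1771 CPM in its highest, against 3.72, 184 and 509 CPM in dendrites. The dendrites of neurons 20, 22 and 27 lay lowest among dendrites, the soma of neuron 23 lay below all dendrites, and the somata of neurons 11, 20, 26 and 27 lay above them. The log2 fold change of Sdhd was -1.12 ± 0.87 (SE, n = 16 neurons; edgeR adjusted p = 0.999), with higher dendrites in 6 of 16 neurons. Without Sdhd, the summed complex II ratio was 0.42 ± 1.67 (SD). With Sdhd kept, the mean of log2 CPM over all 4 genes was 0.33 higher in dendrites.

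The other genes of complex II varied widely between single libraries. Sdha had 0 counts in the somata of neurons 13, 25 and 27, which allows up to 0.145, 3.42 and 0.180 CPM there (3 counts per library, covering counting error only), while its median in soma was 17.8 CPM and its highest value 813 CPM, in neuron 8. In dendrites Sdha ran from 1.06 over 40.3 to 379.9 CPM. Its fitted log2 fold change was 1.31 ± 1.85 (SE), although its mean was higher in soma, with 122 ± 230.4 CPM against 72.4 ± 98.7 CPM in dendrites (SD, n = 16), and the fit with no replicate block gave -0.61. Leaving out single neurons gave values from 0.74 without neuron 27 to 1.90 without neuron 23. Sdhc ran from 0.243 over 202 to 1141 CPM in soma and from 2.09 over 254 to 895 CPM in dendrites, with 1.07 ± 0.92 (SE) and higher dendrites in 10 of 16 neurons. Sdhb ran from 1.68 over 34.3 to 173 CPM in soma and from 2.55 over 40.3 to 269 CPM in dendrites, with -0.28 ± 0.94 (SE), -0.06 without neuron 25 and higher dendrites in 8 neurons. The adjusted p of each of the 3 was 0.999 in edgeR's test. The compartments overlapped for all 4 genes.

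In complex III, the largest fitted difference was that of Uqcrfs1, the Rieske iron-sulfur protein, which takes electrons from ubiquinol. Uqcrfs1 ran from 51.1 over a median of 464 to 1498 CPM in soma and from 4.24 over 221 to 844 CPM in dendrites. The dendrites of neurons 20, 21, 22 and 28 lay under every soma value, and the other 12 lay within the soma range. Its log2 fold change was -1.47 ± 0.76 (SE, n = 16; unadjusted p = 0.062, edgeR adjusted p = 0.999), with higher dendrites in 4 of 16 neurons. It lay between -1.75 and -1.22 when each neuron was left out in turn.

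The remaining 8 genes of complex III had values between -0.45 and 0.61. Uqcrb, a subunit that binds ubiquinone, had 173 CPM in the lowest soma, a median of 675 and 1129.7 CPM in the highest, against 23.7, 556 and 1218 CPM in dendrites. The dendrites of neuron 20 lay below the soma range and those of neurons 14 and 15 above it, and the log2 fold change was -0.31 ± 0.44 (SE), and -0.10 without neuron 20. Uqcr11, a small accessory subunit, ran from 18.3 over 264 to 1288 CPM in soma and from 97.1 over 351 to 1134 CPM in dendrites, with 0.52 ± 0.54 (SE). Uqcrq, another small subunit, ran from 12.4 over 75.8 to 283 CPM and from 42.6 over 97.7 to 455 CPM, with 0.61 ± 0.68 (SE). Both were higher in the dendrites of 11 of 16 neurons. Of the others, the core proteins Uqcrc1 and Uqcrc2 were at 0.50 ± 1.10 and 0.03 ± 0.93, and Cyc1, which carries cytochrome c1, at -0.45 ± 0.67 (SE). The adjusted p of every complex III gene was 0.999 in edgeR's test.

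Cycs encodes somatic cytochrome c, the mobile carrier between complexes III and IV. It ran from 8.19 over 154 to 279 CPM in soma and from 1.72 over 76.2 to 406 CPM in dendrites. The dendrites of neurons 14 and 27 lay below every soma value, while those of neurons 11, 13 and 15 lay above every one. The log2 fold change was -0.97 ± 0.93 (SE, n = 16; edgeR adjusted p = 0.999), with higher dendrites in 6 of 16 neurons. The testis gene of this carrier, Cyct, had 0 counts in all 32 libraries.

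Complex IV held 0.746% ± 0.371 of the gene counts in soma and 0.993% ± 0.554 in dendrites (SD, n = 16), and its share was higher in the dendrites of 12 of 16 neurons. In soma it ran from 0.306% in neuron 27 over 0.642% to 1.81% in neuron 11, and in dendrites from 0.487% in neuron 18 over 0.776% to 2.44% in neuron 8. The dendrites of neurons 8 and 15 lay above every soma, and the somata of neurons 15, 27 and 28 below all dendrites. Fitted values were above 0 for 9 of 10 genes, against 54.8% of all genes tested. The median of 0.54 was 0.31 without neuron 27, and above 0 in all 26 alternative fits, which share libraries with the main fit. Over all genes tested the median was 0.13, and in the alternative fits it lay between -0.07 and 0.32. None of the 10 genes passed the test, at an adjusted p of 0.999 each in edgeR's test. The dendrites also had the higher sum of astrocyte markers in 11 of 16 neurons and of endothelial, mural and fibroblast markers in 13, and the part of these in the complex IV values was not tested.

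Cox4i1, the ubiquitous form of a subunit that regulates the enzyme, had the largest fitted value. It ran from 7.44 over 24.6 to 353 CPM in soma and from 20.2 over 77.6 to 331 CPM in dendrites. The soma of neuron 9 held the highest value of all, while the somata of 7 neurons lay below every dendrite library. Its log2 fold change was 1.35 ± 0.92 (SE, n = 16), with higher dendrites in 12 of 16 neurons. Cox7c, a small subunit, ran from 133 over 1927 to 4518 CPM in soma and from 739.6 over 2446 to 8844 CPM in dendrites, with 0.62 ± 0.39 (SE) and higher dendrites in 10 neurons. The soma of neuron 26 lay below all dendrites, and the dendrites of neurons 8, 14 and 15 above every soma. Without neuron 26 the value was 0.37. Cox6a1, the form of subunit VIa found outside heart and muscle, was at 0.68 ± 0.51 and higher in 11 neurons.

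Cox6c encodes another small subunit. It ran from 24.2 over 1658 to 6399 CPM in soma and from 119.6 over 1716 to 15110.4 CPM in dendrites, the highest value being that of neuron 8, and its log2 fold change was 0.33 ± 0.44 (SE), and 0.12 without neuron 21. The pseudogene row Cox6c-ps1 had at most 5 counts in any library, and no source used here says how reads that fit several gene copies were counted. Without Cox6c, the summed complex IV ratio was 0.41 ± 0.94 (SD) and above 0 in 10 of 16 neurons. Cox5a, which lies at the matrix side, was the gene with a fitted value below 0, at -0.17 ± 0.80 (SE), and 0.10 without neuron 20. It ran from 2.14 over 162 to 907 CPM in soma and from 3.73 over 235 to 468 CPM in dendrites, and the soma range enclosed that of dendrites.

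Cox7a2 and Cox7a2l are related genes, the first for a subunit of complex IV and the second for a factor that links complexes III and IV in supercomplexes. Cox7a2 ran from 2.71 over 32.6 to 130.4 CPM in soma and from 3.25 over 39.3 to 218 CPM in dendrites, and Cox7a2l from 49.5 over 876 to 4339.8 CPM and from 49.5 over 1136 to 5383 CPM. Their log2 fold changes were 0.55 ± 0.96 and 0.16 ± 0.63 (SE). Without neuron 27 they were 0.24 and -0.15, and the fit with no replicate block gave 1.07 for Cox7a2l. Of the counts of the pair, Cox7a2 made 5.81% ± 5.98 in soma and 7.57% ± 10.4 in dendrites (SD, n = 16), and this share was higher in the dendrites of 8 of 16 neurons. The mean difference of 1.77 percentage points was smaller than its SD of 13.1 between neurons.

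Isoforms of complex IV subunits that are known from heart, muscle or testis were scarce. Cox8b, Cox8c and the lung form Cox4i2 had 0 counts in all 32 libraries. Cox6b2 reached 10 counts in 1 dendrite library, and Cox6a2 in 2 somata and 1 dendrite library.

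ATP synthase held 1.00% ± 0.300 of the gene counts in soma and 1.12% ± 0.414 in dendrites (SD, n = 16). In soma it ran from 0.448% in neuron 20 over 0.967% to 1.58% in neuron 9, and in dendrites from 0.541% in neuron 22 over 1.14% to 1.97% in neuron 7. Dendrites were higher in 10 of 16 neurons and the ranges overlapped, with the dendrites of neurons 7, 14 and 15 above every soma. Of 14 tested genes, 8 had a value above 0 and 6 below. Their median, near 0, took either sign when neurons were left out in turn, from -0.085 without neuron 14 to 0.049 without neuron 28.

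The catalytic head of the enzyme is built from subunits alpha (Atp5a1), beta (Atp5b), gamma (Atp5c1), delta (Atp5d) and epsilon (Atp5e). Atp5b, the catalytic subunit, had the smallest SE among members and ran from 759 over 2683 to 4234 CPM in soma and from 209 over 2235 to 4897 CPM in dendrites. The dendrites of neuron 20 lay below the soma range and those of neurons 7 and 14 above it. Its log2 fold change was 0.0065 ± 0.26 (SE, n = 16; edgeR adjusted p = 0.999), with higher dendrites in 7 of 16 neurons. Atp5c1, the rotating shaft, ran from 227 over 874 to 2962 CPM in soma and from 18.6 over 547 to 3208 CPM in dendrites, with -0.72 ± 0.44 (SE), higher dendrites in 5 neurons and 0.02 in limma-voom. The dendrites of neurons 20 and 22 lay below every soma and those of neuron 15 above. Atp5e, at 0.87 ± 0.68, was higher in the dendrites of 12 neurons.

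Atp5i and Atp5l, which encode membrane subunits e and g, small proteins that join ATP synthase dimers, had the smallest p-values of the positive side. Atp5i ran from 71.9 over a median of 232 to 966 CPM in soma and from 162 over 472 to 1455 CPM in dendrites. The dendrites of neuron 8 lay above every soma, and the somata of 6 neurons (20, 22, 25, 26, 27 and 28) lay below every dendrite library. The log2 fold change was 1.07 ± 0.52 (SE, n = 16; unadjusted p = 0.0488, edgeR adjusted p = 0.999), with higher dendrites in 12 of 16 neurons. It lay between 0.878 and 1.204 when neurons were left out in turn. In those edgeR fits the unadjusted p of Atp5i was under 0.05 only without neuron 9, 11, 13 or 18. With library totals, with no filter and in limma-voom it was not under 0.05, while in DESeq2's Wald test and the sign-flip test it was. Atp5l ran from 19.9 over 419 to 1226 CPM in soma and from 395 over 737 to 4164 CPM in dendrites, with 0.83 ± 0.44 (SE; unadjusted p = 0.071, edgeR adjusted p = 0.999) and higher dendrites in 11 neurons. The somata of 6 neurons (20, 22, 23, 26, 27 and 28) lay below every dendrite library, and the dendrites of neurons 20 and 21 above every soma. With no replicate block the value was 2.27.

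Atp5j, which encodes coupling factor F6 of the stalk that holds the head in place, ran from 217 over 895 to 1862 CPM in soma and from 40.1 over 755 to 2166 CPM in dendrites. Its log2 fold change was -0.50 ± 0.46 (SE, n = 16; edgeR adjusted p = 0.999), with higher dendrites in 6 of 16 neurons. The other stalk genes Atp5h and Atp5o were at -0.18 ± 0.43 and -0.04 ± 0.57 (SE). The stalk gene Atp5f1, for subunit b, was the member that did not pass the filter: it had between 0 and 40 counts in any library and 10 or more in 16 of 32. Its current RefSeq symbol is Atp5pb, and 0 rows of the files carried that name. The counts listed under Atp5f1 were used as given.

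**Figure D3:**
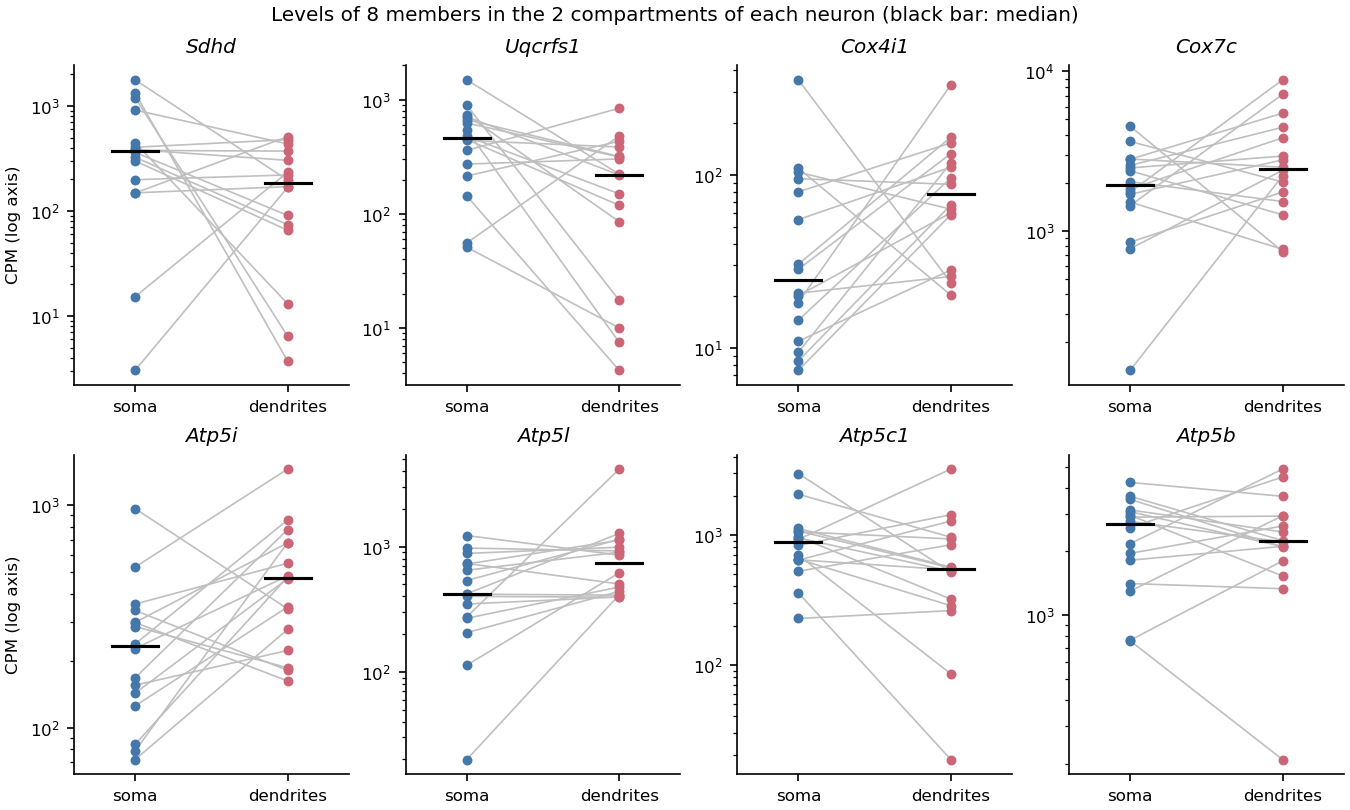
CPM on a log axis of 8 genes in the soma and dendrites of 16 neurons; grey lines join libraries of 1 neuron and black bars are medians. The medians of Atp5i are 232 in soma and 472 in dendrites and those of Uqcrfs1 464 and 221, and the compartments overlap for all 8 genes.

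Subunit c forms the rotor ring in the membrane, and its mature protein is made from Atp5g1, Atp5g2 and Atp5g3. Atp5g3 ran from 129 over 2272 to 4642 CPM in soma and from 454 over 2187 to 4638 CPM in dendrites, with a log2 fold change of 0.0034 ± 0.40 (SE, n = 16; edgeR adjusted p = 1.00). Atp5g1 ran from 16.7 over 155 to 1081 CPM and from 24.6 over 256 to 1079 CPM, and Atp5g2 from 36.6 over 204 to 631 CPM and from 16.8 over 288 to 1328 CPM. Their log2 fold changes were 0.62 ± 0.67 and 0.30 ± 0.55 (SE; edgeR adjusted p = 0.999 each). With no replicate block they were 1.33 and 1.76, without neuron 27 Atp5g1 was at 0.35, and without neuron 20 Atp5g2 was at 0.14. Of the counts of the 3 genes, Atp5g3 made 80.2% ± 12.5 in soma and 76.0% ± 13.3 in dendrites (SD, n = 16) and had the most counts, not corrected for length, in all 32 libraries. Its share was higher in the dendrites of 5 of 16 neurons, and the mean difference of -4.14 percentage points was smaller than its SD of 13.8.

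Levels varied widely between single neurons. Over the 38 tested members, the coefficient of variation between libraries (SD over mean of CPM) had a median of 0.770 in soma and 0.820 in dendrites, against 1.344 and 1.404 over all genes tested, many of which had fewer counts. Uqcrb at 0.395 and Atp5b at 0.424 were the least variable members in soma, and Atp5b at 0.466 in dendrites, while Sdha was the most variable in soma at 1.89 and Atp5d in dendrites at 1.41. The summed share of all 39 genes varied less, 2.78-fold from the lowest to the highest soma and 3.07-fold in dendrites. Across the 16 neurons, the summed share in soma and that in dendrites of the same cell had a Spearman rho of -0.0029 and a Pearson r of 0.0234 on log2 values, given as a description over libraries that differ in depth. Within dendrites, the share of ATP synthase and that of complex I had a rho of 0.821 over 16 libraries, and in soma of 0.385, where both shares come from 1 library and 1 total. The dendrite value was the highest among all pairs of complexes I to V. Other pairs in dendrites ran from 0.0676, for complexes I and II, to 0.635, for complex IV and ATP synthase.

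Single libraries were low or high for many genes at once. The dendrites of neuron 20 held the lowest dendrite value for 16 of 38 members, among them Uqcrb, Uqcrh, Atp5b, Atp5h and Sdhd, and the highest for 4 (Uqcrq, Cox6a1, Atp5a1 and Atp5l). The summed share of all 39 genes in the dendrites of neuron 20 was 2.42%, against a dendrite median of 2.15%. The soma of neuron 9 held the highest soma value for 14 of 38 and the dendrites of neuron 7 the highest dendrite value for 12. How often these libraries were lowest or highest over all genes was not counted. With 10 or more counts as the limit, 38.1 ± 0.998 of 39 genes were detected in soma and 37.8 ± 1.53 in dendrites (SD, n = 16). The fewest were 34, in the dendrites of neuron 25, which had the fewest counts of all libraries. At a common depth of 1071293 counts the numbers were 36.1 ± 2.02 and 36.3 ± 2.23 (15 neurons), and the mean difference of 0.267 was smaller than its SD of 2.66.

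**Figure D4:**
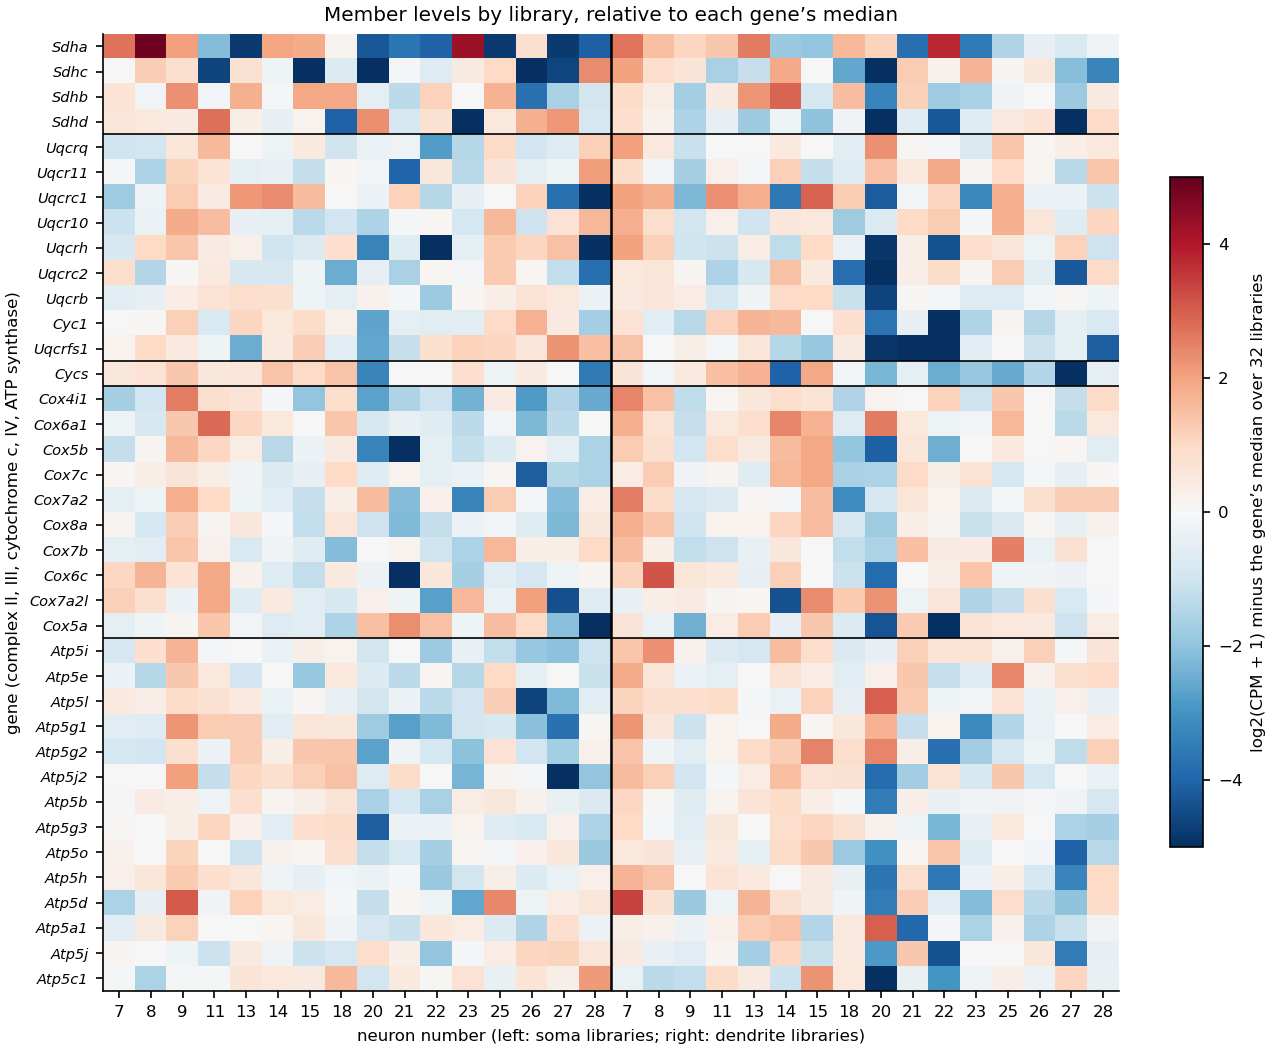
Log2(CPM + 1) of 38 genes (rows, grouped by complex) in 16 soma and 16 dendrite libraries (columns), each minus the gene's median over 32 libraries; red is above and blue below that median. The dendrites of neuron 20 hold the lowest dendrite value for 16 of 38 genes, and the soma of neuron 9 the highest soma value for 14.

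Complex I, the other entry point of electrons, served as the nearest set for comparison. Its 33 measured subunit genes all passed the filter, and 0 passed the test, with 0 at an unadjusted p under 0.05 in edgeR's test. Of these, 17 had a value above 0 and 16 below, with a median of 0.02, and the summed ratio was -0.09 ± 0.60 (SD, n = 16). The difference between complex I and complexes II to V was not tested. Ndufv2 and Ndufs3, which belong to the arm that takes electrons from NADH, had its smallest p-values, at -1.07 ± 0.68 and -1.58 ± 1.10 (SE; edgeR adjusted p = 0.999).

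Other genes of oxidative phosphorylation were taken from fixed lists. Among the carriers and porins that move ATP, phosphate and metabolites, 0 of 6 passed the test, 3 were above 0 and 3 below, with a median of -0.29. The phosphate carrier gene Slc25a3, which supplies ATP synthase, ran from 490.2 over 1124 to 2512 CPM in soma and from 57.4 over 796 to 1773 CPM in dendrites. Its log2 fold change was -0.97 ± 0.46 (SE, n = 16; unadjusted p = 0.0427, edgeR adjusted p = 0.999), with higher dendrites in 4 of 16 neurons. Vdac3, a porin of the outer membrane, was at -0.61 ± 0.48. Among 5 tested further genes of complex IV and ATP synthase, 3 were above 0, with Atpif1, the inhibitor of ATP synthase, at 0.48 ± 0.57 and Higd1a, a regulator of complex IV, at -0.43 ± 0.64.

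Of 14 tested assembly factors, 7 were above 0 and 7 below, with a median of -0.06. The complex III factor Ttc19 was at -3.35 ± 2.20 and the copper chaperone Cox17 at -0.88 ± 0.75 (SE, n = 16). Of 10 tested genes of the citric acid cycle, which feeds complex II, 5 were above 0 and 5 below, with a median of -0.11. Cs, citrate synthase, was at 3.12 ± 2.04, with a soma median of 0 CPM. Of 11 regulators of respiratory genes, 4 passed the filter. Gabpb1 reached 10 counts in 14 somata and 7 dendrite libraries, Tfam, which packages mitochondrial DNA, in 12 and 9, and Tfb2m in 10 and 6. Nrf1 reached them in 0 somata and 2 dendrite libraries, and Ppargc1a, a coactivator of mitochondrial biogenesis, in 1 and 3. Of 4 tested regulators, 2 were above 0 and 2 below, with a median of -1.203, Gabpb1, a GABP subunit, at -2.52 ± 1.55 and Tfb2m, a mitochondrial transcription factor, at -3.89 ± 2.42. Of the heme and cytochrome maturation genes, Fech, which makes heme, was at -1.31 ± 2.18 and Hccs, which attaches heme to cytochrome c, at 0.28 ± 1.89. In edgeR's test 0 genes of these lists passed, and the adjusted p was 0.999 for every gene named from them.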

How the data were processed

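For each library the deposited file gives unnormalized read counts over 17308 rows, 92 of them ERCC spike-in transcripts. Per the labels' protocols, polyadenylated RNA was amplified in 3 rounds and sequenced as stranded libraries of 75 bp paired reads. The submitters' processing notes name genome build rn6. No source used here gives the aligner, the annotation, the use of strand or the treatment of reads that fit several genes, so counts of genes with pseudogenes or overlapping genes are uncertain to that extent. No molecular identifiers are named, and intervals on counts cover counting error only. Spike-ins were removed before totals were taken and genes tested.

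Libraries were grouped by compartment and paired by the number in the title, since the series text gives 1 soma and 1 dendrite sample per cell. As a check, centred profiles of the same number correlated at 0.0671 on average (Spearman), those of different numbers at -0.000573, and 2 of 16 exceeded 0.1. No libraries of a compartment agreed within sampling noise (lowest chi-square per degree of freedom 61.0). The test used edgeR 4.0.16 under R 4.3.3: filterByExpr (minimum count 10) left 4916 genes, followed by TMM, estimateDisp, glmQLFit (robust) and glmQLFTest with the neuron as a block, and Benjamini-Hochberg adjustment over all genes tested (threshold 0.05). SE was derived from the fold change and its F statistic. The code was tested on simulated data with 200 changed genes. DESeq2 1.42.0, limma-voom (limma 3.58.1), an exact sign-flip test on log2 CPM (prior count 2), other scalings and filters, and leaving out neurons were alternatives. The members, lists and tests were chosen with earlier results of these data known. Genes named were all of complex II and Cycs. In each other complex they were the 2 with the highest mean CPM and the 2 with the smallest p in each direction. The 3 genes of subunit c, the pair Cox7a2 and Cox7a2l, any member that failed the filter and up to 2 genes of each other pathway list were added. A gene that this rule names is not reported here. Further members, isoforms and markers were named after their values were seen.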

Additional observations from a re-analysis of the deposited data

Results flagged for a closer look

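Spike-in transcripts entered none of the comparisons. Every one of the 32 libraries held counts of them, at 0.482% of its total in the median library, 0.0605% in the lowest and 4.33% in the highest. No library without spike-ins was used here, so they were set against 0.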

How the results depend on the processing

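In all 26 alternative fits the number of members past an adjusted p of 0.05 was 0, and the median log2 fold change of members lay between 0.16 and 0.37. Over all genes tested that median lay between -0.07 with no replicate block and 0.32 with no filter. With no replicate block, which ignores the pairing, the members' median was 0.34. The lowest adjusted p among members in that edgeR fit was 0.139, and 0 of 4916 genes passed. There 10 of 38 members had an unadjusted p under 0.05, and the share over all genes was not counted. The paired mean log2 ratio with 1 neuron left out ranged from -0.89 to -0.52 for complex II, -0.17 to 0.01 for complex III, 0.27 to 0.50 for complex IV and 0.03 to 0.22 for ATP synthase. Members detected, dendrites minus soma, came to -0.312 ± 1.70 at 10 or more counts and -1.5 ± 3.78 at 50 or more (SD, n = 16). At the common depth (15 neurons) these differences were 0.267 ± 2.66 and 0.4 ± 4.15. Fitted values that changed sign were, with no replicate block, Sdha (-0.61) and Atp5b (-0.0019), with library totals Atp5b (-0.039), with no filter Atp5b (-0.029) and Atp5g3 (-0.032), and with limma-voom Cox5a (0.098) and Atp5c1 (0.018). Without neurons 7, 8 and 9 they were Atp5b (-0.023) and Atp5g3 (-0.022). Without neurons 20 and 25, added after seeing the data, they were Sdhb (0.022), Cox5a (0.198) and Atp5g3 (-0.242), and the median of the members was 0.30. With 1 neuron left out, values ranged from -0.093 to 0.144 for Atp5b, -0.147 to 0.146 for Atp5g3, -0.151 to 0.439 for Cox7a2l and -0.415 to 0.0997 for Cox5a. With no replicate block, values that kept their sign but moved by over 1.5 times were Atp5l (2.27), Atp5g3 (0.44), Atp5g2 (1.76), Uqcrq (1.56), Atp5g1 (1.33), Cox7a2l (1.07), Uqcr11 (0.97), Sdhc (0.23), Cycs (-0.34), Cox5a (-0.52), Sdhd (-1.71), Sdhb (-0.03) and Atp5c1 (-0.39). The mean of log2 CPM over genes gave 0.33 for complex II. With no replicate block the median of complex II genes was -0.32, and with 10 counts asked in 28 of 32 libraries -0.29. The cause was not tested. Depth was lowest in the dendrites of neuron 25, with 229149 gene counts.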
